A study of Homo sapiens with 15 samples.

Results

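The 42 genes described here encode enzymes and membrane proteins of the lysosome, together with TFEB, a transcription factor that switches on lysosomal genes. They were chosen by name and by no rule on a measured value, though with earlier results of these data known. All 42 were found once among the 57272 genes of the count table, and all 42 were among the 15799 genes that passed the filter on low counts, with 8 reads in the thinnest case (CTSS in 1 library). By role the list holds 13 proteases, 11 glycosidases, 5 sulfatases, 6 proteins of lipid breakdown and transport, 6 membrane proteins and the 1 regulator. The RNA came from MRC-5 cells, human lung fibroblasts cultured at 5% oxygen, in 15 libraries with 3 replicates for each of 5 conditions. Young cells at population doubling (PD) 30 carried the empty virus (pWPIR-GFP) with a control siRNA, the TRF2 virus (pWPIR-GFP-TRF2) with the control siRNA, or the empty virus with an siRNA to LMNB1 (siLMNB1). Senescent cells carried the empty or the TRF2 virus, with which they had been infected at what the labels call a pre-senescent stage and, for TRF2, cultured over many doublings by the study's methods. After growth had ceased they received the control siRNA, and they were collected at PD 71 with the empty virus and at PD 75 with TRF2. TRF2 is a protein of the shelterin complex at telomeres, and LMNB1 encodes lamin B1 of the nuclear lamina. The labels mark every senescent library, and no young one, as taken again from an older submission, so the submission a library came from and senescence cannot be told apart. The study calls its 3 replicates biological, the labels do not say how they were kept apart, and p-values measure the spread between these libraries.

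The lysosome is an acidic compartment in which proteins, sugar chains, sulfated glycans and lipids are taken apart by hydrolases that work best at low pH. Most of these enzymes are made in the endoplasmic reticulum, tagged with mannose 6-phosphate in the Golgi and sorted to the lysosome, whose membrane is lined by heavily glycosylated proteins such as LAMP1 and LAMP2. Senescent cells are commonly recognized by the activity of GLB1, the lysosomal β-galactosidase, measured at a pH at which it is barely active in other cells. TFEB and its relatives TFE3 and MITF bind a DNA element of lysosomal promoters, the CLEAR motif, whose centre is an E-box.

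Library totals lay between 26725885 and 43116046 counts. LMNB1 was at 58.6 to 61 CPM (counts per 1e6 counts, normalized by TMM) in young cells with the empty vector and at 2.36 to 2.91 with siLMNB1. TERF2, which encodes TRF2, was at 21.9 to 25.5 CPM in these controls, and with the TRF2 virus at 128 to 307 CPM in young and 210 to 285 CPM in senescent cells. The summed level of 7 genes of dividing cells was 654 to 691 CPM in young cells and 147 to 158 CPM in senescent cells, both with the empty vector, and 370 to 377 CPM with siLMNB1. The summed level of 8 fibroblast markers lay between 18677 and 33162 CPM over all libraries, and that of 8 macrophage markers, a cell type rich in lysosomes, between 0.459 and 3.76 CPM, with PTPRC, ITGAM, AIF1, LYZ, MRC1 and CD163 at no more than 0.124 CPM in any library. The macrophage sum was 2.54 to 3.76 CPM in senescent and 0.459 to 1.57 CPM in young libraries, mostly from CD14 in the former, and its part in the results was not tested. The sum of 6 endothelial markers was 30.7 to 33.9 CPM in young cells with the empty vector, 42.7 to 52.2 CPM with siLMNB1, 32.5 to 37.8 CPM in young cells with TRF2, 59.8 to 70.9 CPM in senescent cells with TRF2 and 24.0 to 61.3 CPM in those with the empty vector. That of 8 epithelial markers was 32.5 to 47.9 CPM in young and 43.4 to 67.1 CPM in senescent libraries. The part of these markers in the results was not tested. Relative to the mean of these controls, log2 counts changed with the GC content of a gene by 0.460 to 0.823 per 10 percentage points in the senescent libraries and by −0.00633 to 0.134 in the young libraries. The value of 0.823 belongs to the third senescent replicate with the empty vector, which stood apart. For this reason every comparison was repeated with library-specific offsets for gene GC content and length.

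Promoter windows that run from 250 bases before to 50 bases after a gene's start were held by the RefSeq table (GRCh38.p14) for 29 of the 42 genes. The motif TCACGTGA, the centre of the CLEAR element and its own reverse complement, occurred in the windows of 5 of these 29 genes (CTSA, GAA, MCOLN1, LAMP1 and GALNS) and in those of 1.18% of the 27305 genes of the table. The E-box CACGTG, which lies inside it and is also its own reverse complement, occurred in 10 of the 29 genes, the further ones being NEU1, ARSB, CTSD, CTSF and CD63, and in 8.77% of all genes. Per window, TCACGTGA was found in 0.98% and CACGTG in 7.26% of the 35116 windows of this length. The windows of the 5 genes with TCACGTGA and that of CTSF, the member with the largest rise in senescent cells with the empty vector (without the offsets), are shown because TFEB is itself on the list. Each line gives the 180 bases that end just before the gene's start, 5′ to 3′ on the gene's strand. Capitals mark TCACGTGA in the first 5 and CACGTG in CTSF, and other E-boxes of the first 5 are left in lower case. The windows lie at chr20:45891155-45891334 (plus strand, CTSA), chr17:80101401-80101580 (plus, GAA), chr19:7522444-7522623 (plus, MCOLN1), chr13:113297059-113297238 (plus, LAMP1), chr16:88856948-88857127 (minus, GALNS) and chr11:66568607-66568786 (minus, CTSF).
CTSA: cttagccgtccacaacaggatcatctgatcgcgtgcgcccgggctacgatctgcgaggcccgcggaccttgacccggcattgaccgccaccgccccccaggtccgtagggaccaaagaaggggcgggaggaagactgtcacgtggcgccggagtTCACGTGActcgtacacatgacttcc
GAA: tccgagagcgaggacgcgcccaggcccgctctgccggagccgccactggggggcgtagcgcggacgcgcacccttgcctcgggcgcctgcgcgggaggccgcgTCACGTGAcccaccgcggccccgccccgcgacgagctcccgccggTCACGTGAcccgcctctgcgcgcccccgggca
MCOLN1: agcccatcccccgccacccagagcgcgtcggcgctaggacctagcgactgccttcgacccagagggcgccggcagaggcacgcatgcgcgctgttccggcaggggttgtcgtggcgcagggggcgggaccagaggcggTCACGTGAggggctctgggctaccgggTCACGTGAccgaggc
LAMP1: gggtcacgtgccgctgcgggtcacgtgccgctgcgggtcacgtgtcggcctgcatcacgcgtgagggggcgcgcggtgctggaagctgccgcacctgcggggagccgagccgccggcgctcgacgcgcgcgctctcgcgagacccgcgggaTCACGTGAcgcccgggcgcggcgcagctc
GALNS: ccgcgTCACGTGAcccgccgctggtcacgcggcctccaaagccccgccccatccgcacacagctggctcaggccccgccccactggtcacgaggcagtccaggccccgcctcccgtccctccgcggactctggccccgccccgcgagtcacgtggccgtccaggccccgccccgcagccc
CTSF: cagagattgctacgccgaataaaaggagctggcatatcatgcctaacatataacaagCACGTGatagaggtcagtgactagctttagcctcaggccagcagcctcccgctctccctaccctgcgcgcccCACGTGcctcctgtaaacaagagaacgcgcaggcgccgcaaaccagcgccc

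Counted from the start in the RefSeq table, the capitals of GAA begin 77 and 32 bases before it, those of MCOLN1 42 and 15, that of CTSA 26 and that of GALNS 175. LAMP1 had 2 copies of TCACGTGA, 29 bases and 2 bases before its start, of which the second runs past the start and is not shown, and 4 further E-boxes between 192 and 142 bases before it. A match says only that these letters stand in the window.

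To ask which lysosomal genes differ between senescent and young cells, the 3 libraries of senescent cells were compared with the 3 of young cells, both with the empty vector. A gene was called higher or lower at an adjusted p below 0.05 (the quasi-likelihood test of edgeR, Benjamini-Hochberg adjusted across all 15799 genes). Of the 42 genes, 27 were called higher and 9 lower, while 32.7% of all genes tested were called higher and 31.9% lower. With the study's added threshold of 1 on the log2 scale, 16 were higher and 3 lower (16.7% and 11.8% of all genes). At this threshold 2636 of all genes were higher and 1863 lower. That is more than the study reports for this comparison with its own fit, so these calls are not the study's list. The median log2 fold change was 0.69 over the 42 genes and 0.02 over all genes tested. The glycosidases held 9 of 11 higher and 0 lower, the proteases 7 higher and 4 lower of 13, the sulfatases 3 higher and 1 lower of 5, the lipid group 3 higher and 2 lower of 6, and the membrane proteins 4 higher and 2 lower of 6. TFEB was called higher.

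**Figure D1:**
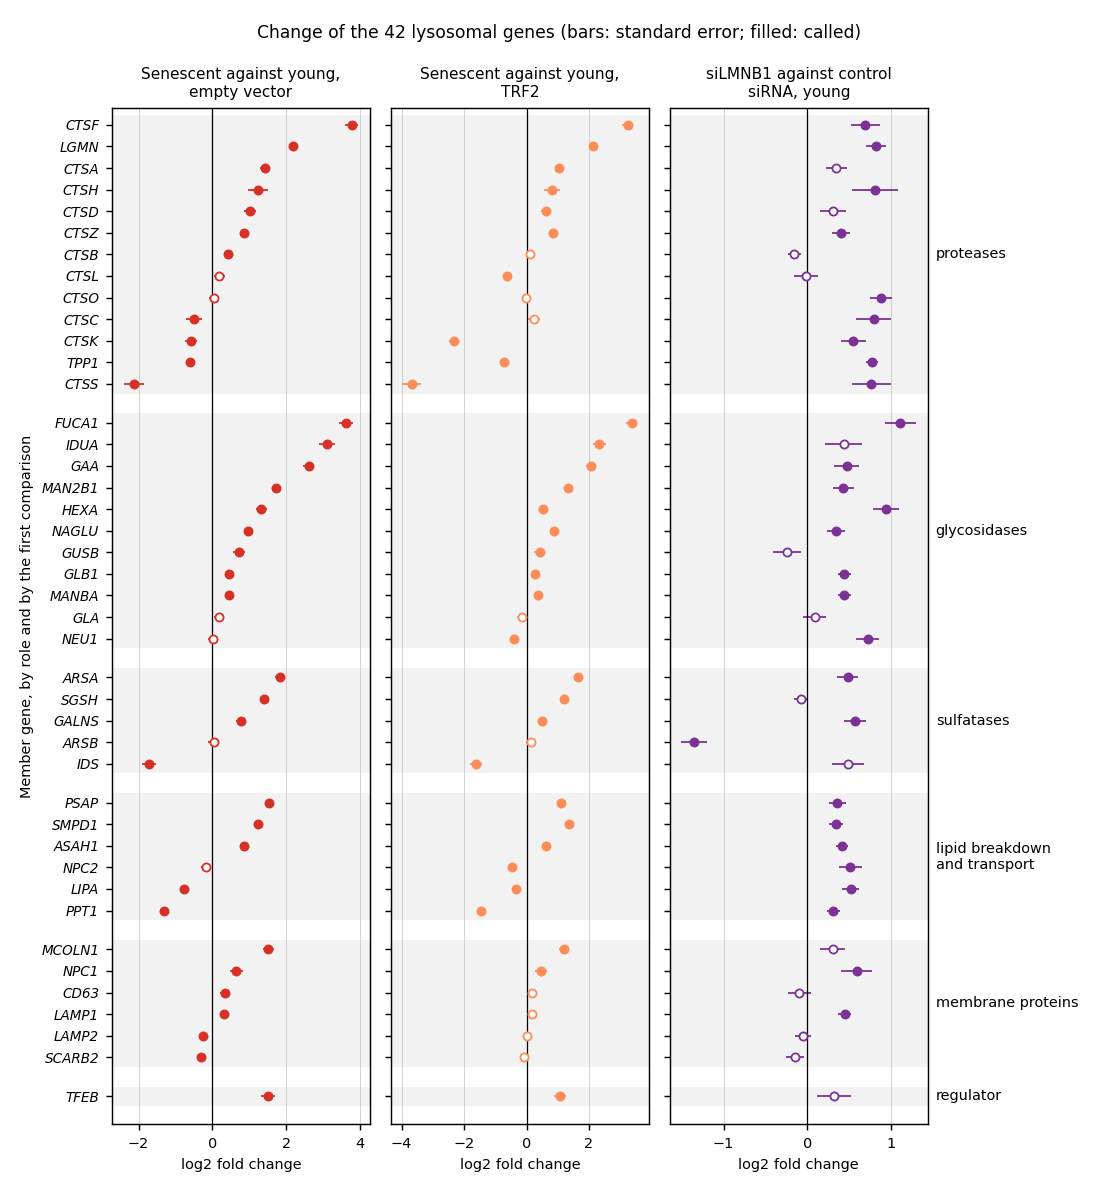
Log2 fold change of each of the 42 genes (horizontal axis, with its standard error as a bar) in 3 comparisons, grouped by role and ordered by the first panel. Filled points passed the adjusted p of 0.05, and the horizontal scales of the panels differ. The 11 glycosidases lie at or above 0 in the first panel, while proteases, sulfatases and lipid proteins spread to both sides, and ARSB is the filled point to the left of 0 with siLMNB1.

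Once the offsets were added, 23 of the 42 genes were called higher and 5 lower in this comparison, while 28.3% of all genes were higher and 29.1% lower, and the median of the 42 genes was 0.43. Of the 27 genes called higher, 20 were also called higher with the offsets. The 7 that lost the call were CTSB, CTSD, GUSB, NAGLU, GALNS, LAMP1 and CD63, of which CTSB and CD63 came to −0.0022 and −0.18 on the log2 scale. Of the 9 called lower, CTSS, TPP1, IDS, LIPA and PPT1 stayed lower, CTSC, CTSK and SCARB2 lost the call, and LAMP2 turned from −0.26 to 0.39, called higher. CTSO and GLA were called higher with the offsets alone. The members are richer in GC than the tested genes as a whole, with a median of 51.6% over their exons against 47.6% for all genes tested. Of the 21 members at or above that 51.6%, 20 were called higher, as were 59.2% of all 5832 tested genes of such GC content, and with the offsets 13 of the 21 and 29.9%. Over the 42 genes, Pearson's r of log2 fold change with GC content was 0.64 without and 0.33 with the offsets, a description across genes that share the same libraries. Of the 5 members within 2 Mb of a chromosome end (CTSD, IDUA, ARSA, GALNS and LAMP1), all 5 were called higher, as were 59.7% of the 1138 tested genes of these regions. With the offsets, IDUA and ARSA were, against 34% of those genes.

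**Figure D2:**
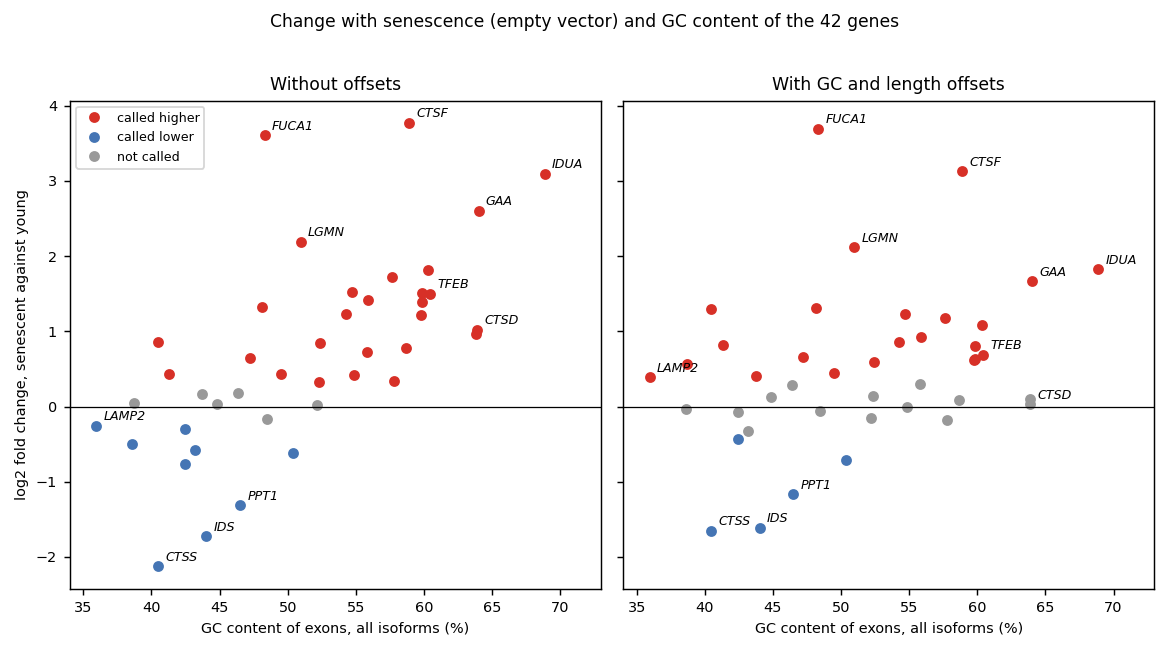
Log2 fold change of senescent against young cells with the empty vector (vertical axis) and GC content of the exons in percent (horizontal axis) of the 42 genes, without (left) and with offsets for GC content and length (right). Red points were called higher, blue lower and grey not called. FUCA1, CTSF and LGMN stay high in both panels and CTSS, IDS and PPT1 low, while CTSD lies at the zero line on the right.

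Among the proteases, the largest rise was that of CTSF, cathepsin F, a cysteine protease encoded at chr11:66563464-66568879 (minus strand, GRCh38). Its level was 4.57, 5.20 and 4.35 CPM in the young libraries and 60.2, 50.7 and 82.9 CPM in the senescent ones. Every senescent library thus lay far above every young one, a 13.7-fold difference (log2 3.77, standard error 0.17, Benjamini-Hochberg adjusted p = 2.9e-11, edgeR), and 8.75-fold with the offsets. LGMN, the asparaginyl endopeptidase legumain, which also processes cathepsins, went from 12.7, 11.4 and 13.3 CPM to 54.4, 50.2 and 66 CPM, 4.57-fold and hardly less with the offsets (4.34-fold). The other proteases called higher were CTSA, the carboxypeptidase that also stabilizes β-galactosidase and neuraminidase (2.67-fold), CTSH (2.35-fold), CTSD, the main aspartic protease (2.03-fold), CTSZ (1.80-fold) and CTSB (1.33-fold). CTSD, which overlaps other annotated genes over 48% of its exonic bases, was at a log2 fold change of 0.03 with the offsets.

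The lower proteases were led by CTSS, cathepsin S, best known for its part in antigen presentation. It was at 4.71, 3.08 and 4.24 CPM in young and at 0.483, 0.926 and 1.30 CPM in senescent cells, −2.13 on the log2 scale (standard error 0.28, adjusted p = 6.8e-06, same edgeR test). All senescent libraries lay under all young ones, at a low level in both groups. TPP1, the tripeptidyl peptidase lost in a form of neuronal ceroid lipofuscinosis, fell from 215, 215 and 222 CPM to 135, 156 and 135 CPM, a log2 fold change of −0.62 that was −0.71 with the offsets. CTSK, cathepsin K, a collagen-degrading enzyme, was at 78.5, 71.7 and 76.8 CPM in young and 36.4, 49.1 and 65.7 CPM in senescent cells, and its call (−0.58, adjusted p = 3.2e-03, same edgeR test) was lost with the offsets. CTSC, which activates granule proteases, was at 390, 368 and 349 CPM in young cells and at 404, 188 and 191 CPM in senescent cells. Its groups overlapped and its call (adjusted p = 0.047, same edgeR test) was lost when any 1 library other than the first senescent replicate was left out. CTSL at 188 to 345 CPM and CTSO at 13.4 to 22.8 CPM in the senescent libraries overlapped with the young ones and were not called.

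Glycosidases, which cut sugars from glycoproteins, glycolipids and glycosaminoglycans, made up the role with the most rises. FUCA1, which removes fucose, was at 2.75, 3.46 and 2.31 CPM in young and at 40.9, 31.4 and 32.8 CPM in senescent cells, a 12.2-fold difference (log2 3.61, standard error 0.19, adjusted p = 1.1e-10, same edgeR test) that was 13.0-fold with the offsets. IDUA, which acts on heparan and dermatan sulfate, went from 5.30, 4.70 and 3.61 CPM to 32.8, 30.8 and 52.9 CPM, 8.55-fold and 3.55-fold with the offsets. GAA, the glycogen-degrading α-glucosidase, went from 26.1, 22.5 and 18.4 CPM to 130, 124 and 154 CPM, 6.08-fold and 3.17-fold with the offsets. In each of these genes the senescent libraries lay above the young ones without overlap. MAN2B1 (3.31-fold), HEXA (2.50-fold), NAGLU (1.96-fold, 1.07-fold with the offsets), GUSB (1.65-fold) and MANBA (1.35-fold) were called higher too.

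GLB1, whose enzyme activity serves as the common stain for senescence, was among the smaller rises. Its level was 111, 98.2 and 104 CPM in young and 143, 137 and 145 CPM in senescent cells. The groups did not overlap, at a 1.36-fold difference (log2 0.44, standard error 0.07, adjusted p = 8.6e-05, same edgeR test) that was the same 1.36-fold with the offsets. GLA, which removes galactose from glycolipids, and NEU1, a sialidase that forms a complex with β-galactosidase and CTSA, were not called (log2 fold changes of 0.17 and 0.02).

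Of the sulfatases, which strip sulfate from lipids and glycosaminoglycans, ARSA, SGSH and GALNS were higher in senescent cells. With the offsets ARSA went from 3.54-fold to 2.13-fold and SGSH from 2.61-fold to 1.55-fold, both still called, and GALNS from 1.72-fold to 1.06-fold, not called. IDS, which removes sulfate from iduronate just before IDUA acts on the same chains, was lower. It was at 86.7, 83.2 and 94.7 CPM in young and 33.1, 32.4 and 14.8 CPM in senescent cells, −1.72 on the log2 scale (standard error 0.20, adjusted p = 1.5e-06, same edgeR test). IDS overlaps same-strand genes of the annotation over 75.9% of its exonic bases. STAR leaves out reads that overlap more than 1 gene, so the level of IDS may be counted too low. ARSB was at 80.1, 71.4 and 44.1 CPM in senescent cells, on both sides of the young libraries, and was not called.

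Among the proteins of lipid breakdown, PSAP, the precursor of the saposins that present lipids to the hydrolases, rose 2.86-fold, the acid sphingomyelinase SMPD1 2.33-fold (1.54-fold with the offsets) and the acid ceramidase ASAH1 1.81-fold, and all 3 kept their calls with the offsets. PPT1, which removes palmitate from proteins, fell from 149, 142 and 150 CPM to 53.9, 59.6 and 63.6 CPM (log2 −1.32, standard error 0.08, adjusted p = 9.7e-10, same edgeR test). LIPA, the acid lipase that frees cholesterol from its esters, fell from 103, 93.2 and 94.6 CPM to 67.1, 56.4 and 47.9 CPM, a log2 fold change of −0.76. Both were lower in every senescent library than in any young one, and both stayed lower with the offsets. NPC2, which hands cholesterol to NPC1, was not called (119 to 195 CPM against 158 to 179 CPM).

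Among the membrane proteins, MCOLN1, the calcium channel mucolipin-1, rose 2.86-fold (1.74-fold with the offsets), and NPC1, the cholesterol exporter, 1.57-fold. LAMP1 was at 641, 614 and 627 CPM in young and at 771, 735 and 851 CPM in senescent cells, higher in every library by 1.25-fold (adjusted p = 1.5e-03, same edgeR test), and at a log2 fold change of 0.13 with the offsets it was not called. LAMP2 was at 305, 293 and 293 CPM in young and at 283, 258 and 204 CPM in senescent cells, lower in every library without the offsets (log2 −0.26) and called higher with them (log2 0.39). Without any 1 of the young libraries it lost its call. CD63, a tetraspanin, was at 1690, 1701 and 2767 CPM in senescent and 1579 to 1647 CPM in young cells. It lost its call without the third senescent replicate (log2 0.05 instead of 0.34) and without any 1 of the young libraries. SCARB2, the receptor that carries β-glucocerebrosidase to the lysosome, was called lower at a log2 fold change of −0.30 and lost the call with the offsets and without the first young replicate.

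TFEB itself was at 3.56, 2.79 and 3.13 CPM in young and at 6.80, 7.44 and 12.4 CPM in senescent cells. The senescent libraries lay above all young ones, 2.83-fold (standard error 0.19 on the log2 scale, adjusted p = 5.05e-06, same edgeR test) and 1.61-fold with the offsets. Without the third senescent replicate, which stands at the upper end for CTSF, IDUA, GAA, LGMN, MCOLN1 and TFEB, 28 of the 42 genes were called higher and 10 lower in this comparison, with a median of 0.55. These counts have no share of all genes in the same fit beside them. All 42 genes together took 0.798% ± 0.0115 (SD, n = 3) of the counts of young cells and 1.12% ± 0.115 (SD, n = 3) of those of senescent cells, at 0.786% to 0.809% and 1.05% to 1.26%. The other shares were 1.06% ± 0.0115 in senescent cells with TRF2, 0.861% ± 0.0174 in young cells with TRF2 and 0.963% ± 0.0146 with siLMNB1 (SD, n = 3 each). The difference of 0.325 percentage points between both states with the empty vector has an exact two-sided permutation p of 0.1, the smallest that 3 against 3 allows. In bulk RNA, a change in the number of cells that express a gene and a change in RNA per cell cannot be told apart.

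**Figure D3:**
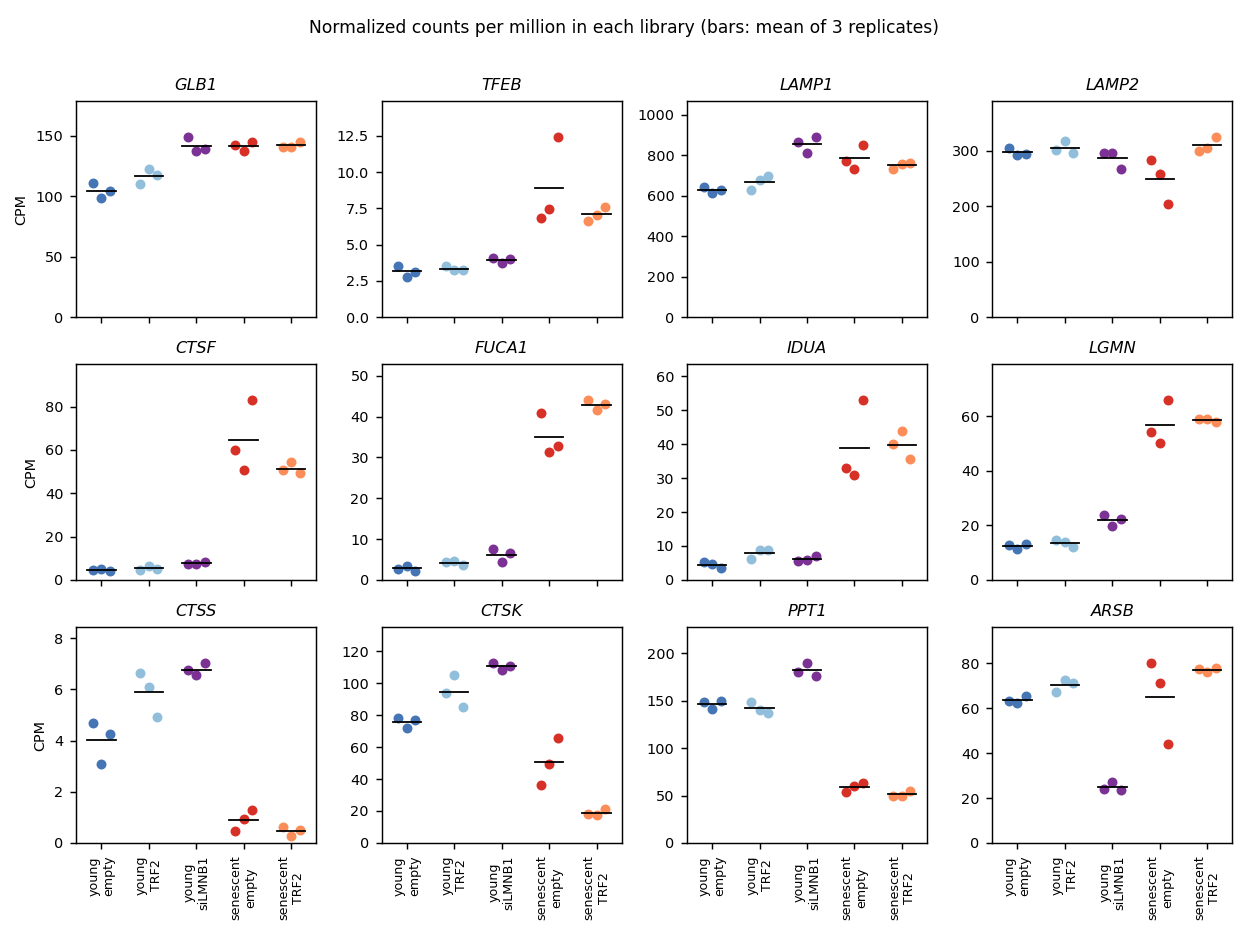
Normalized CPM (vertical axis, from 0) of 12 of the genes in each of the 15 libraries, by condition, with the mean of 3 replicates as a bar. CTSF, FUCA1, IDUA and LGMN are high in both senescent groups, CTSS and PPT1 low in both, and ARSB low in the siLMNB1 libraries, at 23.5 to 27.3 CPM.

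Levels can be set beside each other between genes per kilobase of exons (MANE Select transcript). In young cells with the empty vector, CD63 was the most abundant of the 42 genes at 1582 ± 34.2 (SD, n = 3) CPM per kilobase, followed by CTSB (385 ± 8.65), PSAP (259 ± 5.49), LAMP1 (232 ± 4.99), NPC2 (202 ± 14.3) and CTSC (197 ± 11.1), the last 2 within their SDs of each other. In senescent cells with the empty vector the first 4 were CD63 (2007 ± 605), PSAP (742 ± 86.5), CTSB (512 ± 51.5) and LAMP1 (291 ± 22.0). TFEB (1.35 ± 0.165), HEXA (1.29 ± 0.0985), CTSS (1.02 ± 0.212) and CTSH (0.629 ± 0.140) closed the order in young cells, with TFEB and HEXA within their SDs. The 4 members with the largest folds without the offsets, CTSF, FUCA1, IDUA and GAA, lay between 1.39 and 5.95 CPM per kilobase in young and between 17.2 and 36.2 in senescent cells. The fall of CTSS took it to 0.229 ± 0.103 CPM per kilobase, the lowest of the 42.

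**Figure D4:**
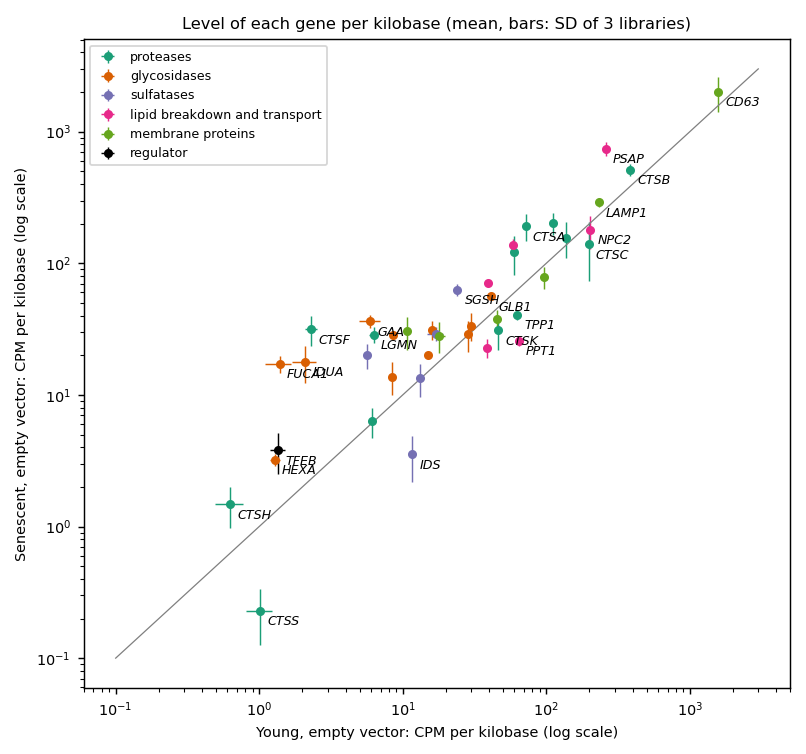
Mean level of each of the 42 genes in CPM per kilobase of exons in young (horizontal axis) and senescent cells (vertical axis) with the empty vector, both on log scales, with the SD of 3 libraries as bars and colours for the roles. The grey line marks equal levels. CD63, PSAP, CTSB and LAMP1 lie at the upper end in both, FUCA1, CTSF, IDUA and GAA far above the line, and IDS, CTSS, PPT1 and CTSK under it.

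The second senescence comparison, between cells that carried TRF2, used none of the libraries of the first. Here 24 of the 42 genes were called higher and 9 lower (28.2% and 30.1% of all genes tested), 13 and 4 with the added threshold of 1 (11.9% and 12.1%), and 23 and 8 with the offsets (29.7% and 25.6%). The median of the 42 genes was 0.44. Of the 21 members at or above the median GC content of the 42, 17 were called higher, as were 49.6% of the 5832 tested genes of such GC content. With the offsets, 13 of the 21 and 31.9% were. Both comparisons called 24 of the 42 genes higher and 6 lower (CTSK, CTSS, TPP1, IDS, LIPA and PPT1), while 24.5% of all genes tested were higher in both and 25.2% lower in both. None of the 42 was called in opposite directions, as 0.184% of all genes were. In both comparisons the young and senescent libraries come from different submissions.

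FUCA1 had the largest rise here, from 4.32, 4.6 and 3.57 CPM in young to 44, 41.6 and 43.2 CPM in senescent cells, 10.3-fold. CTSF rose 9.42-fold (7.08-fold with the offsets), from 4.73, 6.65 and 4.98 CPM to 50.5, 54.3 and 49.3 CPM. IDUA rose 5.01-fold, from 6.14, 8.93 and 8.80 CPM to 40.1, 43.9 and 35.5 CPM. Like these glycan enzymes and cathepsin F, the protease LGMN and the α-glucosidase GAA had every senescent library above every young one. LGMN rose 4.33-fold, from 14.6, 13.9 and 12.2 CPM to 59.2, 59.0 and 57.9 CPM. GAA rose 4.15-fold, from 22.5, 32.4 and 24.5 CPM to 110, 119 and 100 CPM. Apart from that of CTSF, these folds are given without the offsets only.

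At the other end, CTSS had the largest fall and CTSK the next. CTSS fell from 6.66, 6.08 and 4.92 CPM to 0.605, 0.255 and 0.513 CPM, −3.67 on the log2 scale. IDS fell from 95.7, 99.5 and 97.8 CPM to 31.0, 30.1 and 33.9 CPM, at −1.63. In both, and in PPT1 and TPP1, the groups did not overlap. PPT1 fell from 149, 141 and 138 CPM to 50, 49.9 and 55.0 CPM, at −1.46. TPP1 fell from 261, 251 and 255 CPM to 152, 160 and 149 CPM, at −0.73. LIPA, outside the 5 largest falls, was at 90.7, 98.3 and 93.8 CPM in young and 71.4, 72.4 and 77.6 CPM in senescent cells. All its senescent libraries were lower, and its call at −0.35 was lost with the offsets. TFEB rose from 3.53, 3.26 and 3.23 CPM to 6.63, 7.04 and 7.58 CPM, 2.12-fold and 1.41-fold with the offsets. GLB1 went from 110, 123 and 118 CPM to 140, 141 and 145 CPM, 1.22-fold (adjusted p = 3.7e-03, same edgeR test). LAMP1 (630, 679 and 697 against 733, 759 and 764 CPM) and LAMP2 (301, 317 and 295 against 299, 305 and 324 CPM) were not called, and LAMP2 was called higher with the offsets (log2 0.49).

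NEU1, NPC2 and CTSL were called lower with TRF2 alone, at log2 fold changes of −0.39, −0.46 and −0.62, while CTSB, CTSC, LAMP1, LAMP2, CD63 and SCARB2 were called with the empty vector alone, which does not show that the senescence difference differs between the vectors. The offsets took the calls of CTSD, CTSH, GUSB, GALNS, LIPA and NPC2 in this comparison and turned the log2 fold changes of CTSD and GALNS to −0.11 and −0.05. CTSB, called lower, and CTSC, CTSO and LAMP2, called higher, were called with the offsets alone. When libraries were left out in turn, GUSB lost its call without 5 of the 6 (all but the second young replicate), NEU1 without the first or second senescent or the first or the third young replicate, NPC1 without the first or the third senescent or the first or second young one, and CTSH without the second senescent or the first or the third young one.

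The interaction, which tests whether the senescence difference itself differed between TRF2 and the empty vector, was called for 0 genes upwards and for CTSK downwards (0.177% and 0.956% of all genes). At an unadjusted p below 0.05, 2 members were higher and 12 lower in the interaction, and DESeq2's Wald test called 0 higher and 4 lower. CTSK went from 93.8, 105 and 85.1 CPM in young to 18.1, 17.6 and 21.3 CPM in senescent cells with TRF2, −2.32 on the log2 scale against −0.58 with the empty vector. The difference of the differences was −1.73 (standard error 0.22, adjusted p = 4.6e-03, same edgeR test), and −1.82 with the offsets. Without the first senescent replicate with the empty vector, 2 members were higher and 6 lower in the interaction, and without the third 0 and 2. No share of all genes stands beside the counts of these other settings. The median log2 fold change of the interaction was −0.25 over the 42 genes and −0.03 over all genes tested.

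Within senescent cells, TRF2 against the empty vector gave 2 genes called higher, CTSC and LIPA, and 2 called lower, CTSK and CTSL (4.87% and 6.41% of all genes tested were called). Fitted to these 6 libraries alone, none of the 4 was called, with adjusted p of 0.066 for CTSK, 0.15 for CTSL and 0.26 for CTSC and LIPA (same edgeR test). CTSL, a broadly expressed cysteine protease, was at 152, 154 and 164 CPM with TRF2 and at 188, 246 and 345 CPM with the empty vector, lower in every library (log2 fold change −0.73, adjusted p = 4.9e-03, same edgeR test). CTSK lay lower without overlap as well, at −1.41 (adjusted p = 1.0e-04, same edgeR test). LIPA was higher in every library, at 0.37 (adjusted p = 0.029, same edgeR test). CTSC, at 422, 522 and 387 CPM with TRF2, overlapped with the 404 CPM of 1 library with the empty vector, and its call was lost with the offsets and without 4 of the 6 libraries (all but the first with the empty vector and the third with TRF2). The call of LIPA was lost without the second library with the empty vector or any 1 with TRF2. Without the first library with the empty vector, 5 members were higher and 8 lower. The counts of that fit have no share of all genes beside them, so they do not show a trait of the members. With the offsets alone, ARSA and SMPD1 were called higher and ASAH1 lower. These cells also differed in PD, 75 against 71.

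In young cells, TRF2 left 0 of the 42 genes called in either direction by the edgeR test (0.152% of all genes were called higher and 0.0253% lower), and DESeq2's Wald test called 1 higher and 0 lower. The edgeR test called 5 higher when fitted to these 6 libraries alone and 2 higher without the filter on low counts. At an unadjusted p below 0.05 there were 11 members higher and 0 lower. No share of all genes stands beside the counts of these other settings, so they do not show a trait of the members. In 18 of the 42 genes every library with TRF2 lay above every library with the empty vector, and in 0 every one lay under it, while 11.7% and 12% of all genes tested did so. The largest differences, none of them called, were those of IDUA (log2 0.81, 6.14 to 8.93 against 3.61 to 5.30 CPM), CTSS (0.56, 4.92 to 6.66 against 3.08 to 4.71 CPM) and HEXA (0.54, 7.55 to 11.0 against 5.69 to 6.64 CPM).

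To ask what the loss of lamin B1 does in young cells, those with siLMNB1 were compared with those with the empty vector and control siRNA. These controls also serve in the first senescence comparison. Called higher were 27 of the 42 genes and lower 1, ARSB, against 16.4% and 16.1% of all genes tested. With the study's threshold of 0.58 on the log2 scale, 11 were higher and 1 lower (10.3% and 8.06%). With the offsets, 23 were higher and 5 lower (15.1% and 24.3%), and the median was 0.33, compared with 0.44 without them and 0.04 over all genes without them. The log2 fold changes ran from −1.35 to 1.11. All 6 lipid genes were called higher (1.24-fold for PPT1 to 1.43-fold for LIPA), as were 9 of 13 proteases, 8 of 11 glycosidases, 2 of 5 sulfatases and 2 of 6 membrane proteins, NPC1 and LAMP1. TFEB, at 4.06, 3.71 and 4 CPM, lay above its 3 control libraries and was not called (1.25-fold, adjusted p = 0.24, same edgeR test).

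FUCA1 had the largest rise with siLMNB1, to 7.5, 4.51 and 6.55 CPM, 2.16-fold over the controls. HEXA, the α-subunit of β-hexosaminidase, went from 6.14, 6.64 and 5.69 CPM to 14, 9.80 and 11.6 CPM, 1.91-fold (adjusted p = 2.9e-04, same edgeR test). CTSO, a little-studied cysteine cathepsin, went from 17.2, 17.8 and 18.3 CPM to 33.2, 32.9 and 32.1 CPM, 1.84-fold (adjusted p = 1.2e-04, same edgeR test). In all 3 the siLMNB1 libraries lay above the controls without overlap. GLB1 was at 149, 137 and 139 CPM, 1.36-fold over the controls (log2 0.44, adjusted p = 3.0e-04, same edgeR test) and 1.28-fold with the offsets. LAMP1 was at 864, 809 and 889 CPM, 1.36-fold, and LAMP2 at 296, 296 and 267 CPM, not called. ARSB, which removes sulfate from dermatan and chondroitin sulfate, fell from 63.2, 62.3 and 65.3 CPM to 24.0, 27.3 and 23.5 CPM (log2 −1.35, standard error 0.15, adjusted p = 6.4e-06, same edgeR test), with and without the offsets and in every library.

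Set side by side with senescent cells with the empty vector, where they were called lower, the proteases CTSC, CTSK, CTSS and TPP1 and the lipid enzymes LIPA and PPT1 were called higher with siLMNB1. TPP1 stood at 374, 370 and 372 CPM with siLMNB1, against 215 to 222 CPM in the controls and 135 to 156 CPM in senescent cells. PPT1 stood at 181, 190 and 176 CPM, LIPA at 142, 141 and 134 CPM, CTSK at 113, 108 and 111 CPM, CTSS at 6.75, 6.56 and 7.03 CPM and CTSC at 629, 642 and 644 CPM. In each of these 6 genes, every siLMNB1 library lay above every control library. Both comparisons use the same control libraries, so their calls are not independent. No share of all genes with such opposite calls stands beside these 6, so they do not show a trait of the members. With the offsets, CTSH, CTSZ, GAA, NAGLU and SMPD1 lost their calls with siLMNB1, IDS was called higher, and CTSB, SGSH, CD63 and SCARB2 were called lower. When single libraries were left out, ARSA, MAN2B1, NAGLU, CTSH, CTSS and GAA lost their calls without the third siLMNB1 replicate, CTSS, GAA, NPC1 and PSAP without the first, and CTSH and NPC1 without the second. Without a control library, NPC1 lost its call (the first), CTSH, CTSS, GAA and NPC1 did (the second), and CTSH, GAA, MAN2B1 and NAGLU did (the third).

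Of the 5 genes with TCACGTGA in the promoter windows shown above, all 5 were called higher in senescent cells with the empty vector, 4 with TRF2 (all but LAMP1) and 3 with siLMNB1 (GAA, LAMP1 and GALNS). With the offsets, 3 stayed higher with the empty vector (CTSA, GAA and MCOLN1), 3 with TRF2 and 2 with siLMNB1. Of the 246 tested genes with TCACGTGA in the whole table, 32.1% were higher with the empty vector, 27.6% with TRF2 and 22.4% with siLMNB1. With the offsets these shares were 26.8%, 30.1% and 20.3%. Of the 10 members with CACGTG, 8 were higher and 0 lower with the empty vector, and 4 and 0 with the offsets, where their median log2 fold change went from 0.90 to 0.13. Over the 1404 tested genes with CACGTG, 34.3% were higher and 34.3% lower, and with the offsets 27.1% and 33.6%. With the empty vector the senescence difference was 2.67-fold for CTSA, 6.08-fold for GAA, 2.86-fold for MCOLN1, 1.25-fold for LAMP1 and 1.72-fold for GALNS. Of the 19 genes whose windows held no E-box, 10 were called higher and 6 lower in that comparison, and 10 and 4 with the offsets, with FUCA1, IDUA and TFEB among those with rises and PPT1, LIPA and TPP1 among those with falls. Of the 10077 tested genes with a window and no E-box, 32.2% were higher and 34.4% lower, and with the offsets 28.5% and 30.6%.

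The other lists of the pathway were read the same way in senescent cells with the empty vector, where 32.7% of all genes were higher and 31.9% lower, and 28.3% and 29.1% with the offsets. With the offsets the counts were 12 higher and 4 lower of 23 other lysosomal proteins, 11 and 1 of 16 V-ATPase subunits, 4 and 2 of 6 genes of mannose 6-phosphate sorting, 5 and 3 of 20 MiT/TFE genes and 17 and 3 of 24 autophagy genes. Without the offsets, of 23 tested genes among 25 other lysosomal proteins, 10 were higher and 5 lower. ATP13A2, a lysosomal polyamine transporter (log2 1.57), and the phospholipase PLA2G15 (0.99) had the largest rises, and GPNMB, a membrane glycoprotein (−2.30, from 77.5 to 86.9 CPM down to 16.2 to 16.6 CPM), and TMEM192 (−0.80) the largest falls. Of 16 tested subunits of the V-ATPase, the proton pump that acidifies the lysosome, 9 were higher and 3 lower, led by ATP6V0A1 (0.94) and ATP6AP1 (0.92). Its largest falls, ATP6V1B2 (−0.45) and ATP6V1C1 (−0.45), were not called with the offsets. Of the 6 genes of mannose 6-phosphate sorting, GNPTG (1.83), a subunit of the enzyme that makes the tag, and NAGPA (0.76) were higher and the cation-dependent receptor M6PR (−0.73) was lower, a share of 33.3% higher that lies at that of all genes. These genes were ranked without the offsets. With them, the log2 fold changes of the other lysosomal proteins ran from −2.07 to 0.86, so ATP13A2 and PLA2G15 lay no higher than 0.86. Those of the V-ATPase subunits ran from −0.30 to 1.10 and those of mannose 6-phosphate sorting from −0.54 to 1.39.

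Of the 20 MiT/TFE factors and their controlling proteins, 8 were higher and 5 lower (40% and 25%), and their median log2 fold change of 0.23 was 0.0080 with the offsets. The largest rises were those of RRAGD, a Rag GTPase that is itself a target of these factors (log2 2.62, from 0.176 to 0.484 CPM up to 1.04 to 2.66 CPM), and TFEC (1.15), and the largest falls those of FNIP1 (−0.80) and LAMTOR3 (−0.72). LAMTOR3 was at −0.04 and not called with the offsets. Of 24 tested autophagy genes, 17 were higher and 3 lower, with the kinase ULK1 (1.85) and MAP1LC3A (1.66) at the top and ATG9A (−0.60) and ATG7 (−0.55) at the bottom. With the offsets the log2 fold changes of this list ran from −1.26 to 0.97, so ULK1 and MAP1LC3A lay no higher than 0.97. Those of the MiT/TFE genes ran from −0.51 to 2.94. With siLMNB1, the counts were 14 higher and 4 lower among the other lysosomal proteins, 5 and 2 among the V-ATPase subunits, 2 and 0 in mannose 6-phosphate sorting, 2 and 3 among the MiT/TFE genes and 4 and 5 in autophagy, against 16.4% higher and 16.1% lower of all genes. The shares higher of the MiT/TFE genes (10%) and autophagy (16.7%) lay below or near that background. Those of the V-ATPase subunits (31.25%), mannose 6-phosphate sorting (33.3%) and the other lysosomal proteins (60.9%) lay above it. With the offsets, the siLMNB1 counts in the same order of lists were 14 and 5, 3 and 4, 3 and 0, 1 and 6, and 3 and 7, against 15.1% and 24.3% of all genes. In senescent cells with TRF2, the counts in the same order were 9 and 3, 7 and 2, 4 and 1, 7 and 5, and 15 and 3, against 28.2% and 30.1% of all genes. CLN3, CD68, ATP6V0C and GABARAP did not pass the filter, with at most 0.470 CPM in any library. Other genes of the annotation overlap 31.1%, 85.6%, 76.3% and 48.2% of the exonic bases of these 4, and their low counts are no measure of their expression.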

How the data were processed

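RNA from 15 libraries of MRC-5 cells, 3 for each of 5 conditions, had been sequenced as paired ends. According to the methods of the study, the authors trimmed the reads with Trimmomatic and aligned them with STAR to GRCh38, and they deposited the raw counts per gene that STAR gives, with no normalization and replicates kept apart. STAR leaves out a read that overlaps more than 1 gene, which lowers the counts of overlapping genes. The annotation release and the strand setting are not given in the sources used here.

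From these counts, edgeR 4.0.16 in R 4.3.3 fitted 1 quasi-likelihood model with a mean for each condition over all 15 libraries, after filterByExpr and TMM normalization. The comparisons were senescent against young cells (empty vector, and TRF2), siLMNB1 against control siRNA, TRF2 against the empty vector (young, and senescent) and the interaction. Genes with a Benjamini-Hochberg adjusted p below 0.05 over 15799 genes were called. The study adds a threshold of 1 on the log2 fold change, or 0.58 for siLMNB1, which served as an alternative. Library totals of 26725885 to 43116046 counts left at least 8 counts for every member in every library. CPM are counts over the TMM-scaled library size. Length, GC content and overlaps were taken over the union of all exons of a gene in GENCODE 44, levels per kilobase over the MANE Select transcript, and promoter windows from RefSeq. Offsets were loess curves (span 0.3, prior count 1) of log2 counts on GC content and length in each library against the mean of the 3 young empty-vector libraries.

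Alternatives were DESeq2 1.42.0, its size factors, no filter, fits to the compared libraries alone, a replicate block, the offsets, and leaving out each library. No pairing of the libraries by replicate number was detected (correlations of −0.0945 to 0.201, with 0 of 10 pairs of groups over 0.1 throughout). This does not show that same-numbered replicates were handled apart. The scripts were tested on simulated data. The members, lists and alternatives were chosen with earlier results of these data known. Libraries' values are given for GLB1, TFEB, LAMP1, LAMP2, the 5 largest called rises and falls of each senescence comparison, the 3 of each other comparison and genes called in the interaction, and, of the other lists, the 2 largest called rises and falls are named. Other genes with values were chosen after their values were seen.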

Additional observations from a re-analysis of the deposited data

Results flagged for a closer look

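CTSK, cathepsin K, differed between the vectors in its senescence difference by the interaction test, at −1.73 on the log2 scale with TRF2 minus the empty vector (standard error 0.22). In both vectors all 3 senescent libraries lay below all 3 young ones.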

How the results depend on the processing

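With the GC and length offsets, the members called lower in senescent cells with the empty vector were 5, and 5 with the offsets and a replicate block together. The median log2 fold changes of the 42 genes, with the offsets and then with the block added, were 0.43 and 0.42 for senescence with the empty vector, 0.33 and 0.33 for siLMNB1, 0.113 and 0.112 for TRF2 in young cells and −0.14 and −0.13 for the interaction. Reversed in senescence were, in the same order, CTSB (−0.00222 and −0.00374), LAMP2 (0.39 and 0.39) and CD63 (−0.18 and −0.19) with the empty vector, and CTSD (−0.11 and −0.11) and GALNS (−0.048 and −0.048) with TRF2. With siLMNB1, 5 members were lower with the offsets and 5 with the block added. For TRF2 in senescent cells, 4 were higher with both. The fold threshold left 16 higher and 3 lower for senescence with the empty vector, 13 and 4 with TRF2, 11 higher with siLMNB1, and 0 higher and 1 lower for TRF2 in senescent cells. DESeq2 called 2 lower with siLMNB1, 1 higher for TRF2 in young cells, and 4 lower both for TRF2 in senescent cells and for the interaction. Without the filter, 2 were higher for TRF2 in young cells, and 1 higher and 6 lower in the interaction. With only the libraries compared, 5 were lower with siLMNB1, 5 higher for TRF2 in young cells, and 0 higher and 0 lower for TRF2 in senescent cells. As shares of the TMM-scaled library size, the 42 genes differed by 0.226 percentage points for senescence with TRF2 and by 0.118 for siLMNB1. No share of all genes is set beside these counts here, and the causes of these shifts were not tested.

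Leaving out 1 library at a time gave 26 to 29 higher and 6 to 10 lower for senescence with the empty vector (median 0.55 to 0.79), 21 to 23 and 8 to 9 with TRF2 (0.37 to 0.47), 21 to 26 and 1 with siLMNB1 (0.39 to 0.46), 0 and 0 for TRF2 in young cells (0.12 to 0.17), 0 to 5 and 2 to 8 for TRF2 in senescent cells (−0.11 to 0.06), and 0 to 2 and 1 to 6 for the interaction (−0.30 to −0.11). The counts called in these fits have no share of all genes beside them. The share differences ranged, in percentage points, from 0.259 to 0.362, 0.194 to 0.212, 0.160 to 0.174, 0.0548 to 0.0721 and −0.0959 to 0.00768. LAMP2 with TRF2 was at −0.013 without the third senescent replicate and at −3.91e-05 without the third young one, in a range up to 0.050. The replicate block alone left the calls at 27 higher and 9 lower, 24 and 9, 27 and 1, 0 and 0, 3 and 2, and 0 and 1, and changed the call of none of the 106 results on named members. Of those 106, 104 kept direction and call with DESeq2, 105 with its size factors, 106 without the filter, 97 with only the libraries compared and 82 with the offsets.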
